A study of Mus musculus with 4 samples.

Results

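Antigen presentation by major histocompatibility complex (MHC) class I was examined through 10 genes, B2m, H2-K1, H2-D1, Tap1, Tap2, Tapbp, Psmb8, Psmb9, Psmb10 and Nlrc5, in subclones of the mouse hybridoma 36-65. The members were all probe sets to which the platform annotation gives 1 of these symbols and no other. They were 27 of the 45037 probe sets tested, and each of the 10 genes had at least 1 (10 of 18193 measured genes). Another 3 probe sets carry a member's symbol together with that of a related gene and were not assigned.

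A hybridoma is an antibody-secreting cell line derived from the fusion of a B cell and a myeloma cell, and class switching is the replacement of one heavy chain constant region by another. Subclones H23 and H27 are labelled as spontaneously switching at high frequency in culture, and subclones L25 and L27 as switching at low frequency. There was 1 array of total RNA for each of the 4 subclones, and all 4 were grown in the same serum-supplemented medium with no treatment named. Each class is therefore represented by 2 clones of a single line, the mouse strain is not given, and nothing in the labels says that the clones of a class arose separately, and p-values reflect no more than the scatter among the 4 arrays, which may be technical. All 7 measured plasma cell markers lay above the median probe set on every array, as did 10928 of 18193 measured genes. Of the 7, 2 fell in high switching subclones, Tnfrsf17 (-0.71 ± 0.13) and Xbp1 (-0.71 ± 0.13, limma adjusted p = 0.0454 and 0.0461). At this threshold 4.82% of all measured genes passed. Prdm1 lay the other way and did not pass (0.74 ± 0.20, limma adjusted p = 0.119). Of the 7 differences 4 were positive, with a median of 0.03. Of the 5 measured B cell markers, Cd79b and Ms4a1 exceeded the median probe set on every array, Pax5 only on those of H23 and L25, and Cd22 and Cd79a on none. Cd79b rose in high switching subclones (0.77 ± 0.11, limma adjusted p = 0.0238). In bulk RNA, fewer cells with a transcript and less transcript in each cell cannot be told apart.

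Class I molecules carry peptides from inside the cell to its surface, where CD8 T cells read them. The heavy chains (here H2-K1 and H2-D1) pair with the invariant light chain beta-2 microglobulin, encoded by B2m. Peptides are cut by the proteasome, whose catalytic subunits can be exchanged for the inducible subunits encoded by Psmb8, Psmb9 and Psmb10 to form the immunoproteasome. The transporter TAP, a dimer of the Tap1 and Tap2 products, moves the peptides into the endoplasmic reticulum, and tapasin (Tapbp) links TAP to empty class I molecules. Nlrc5 encodes a transactivator that acts on class I genes through a shared promoter module, and interferon gamma is a strong inducer of most of these genes.

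The promoters are shown because they are where this shared module is known to act. RefSeq windows of 250 bases before the start (build GRCm38.p6, from the reference mouse and not from these cells) were found for 8 of the 10 members, and Tap2 and Nlrc5 had none. Capitals mark matches on either strand to GGGNNTTNC (part of a kappaB element), AANNGAAA (a core bound by interferon regulatory factors), TTCNNNGAA (a form of the gamma-activated sequence), TGACG (a core of the X2 box) and ATTGG (a core of the Y box). The windows are chr2:122147437-122147686 (plus strand) for B2m, chr17:34000348-34000597 (minus strand, the first of 2 windows) for H2-K1, chr17:35262844-35263093 (plus strand) for H2-D1 and chr17:37269984-37270233 (plus strand) for H2-M3, a nonclassical class I gene described further on. The stretch between the divergent starts of Psmb9 and Tap1 is chr17:34187331-34187555, read in the direction of Tap1.
B2m: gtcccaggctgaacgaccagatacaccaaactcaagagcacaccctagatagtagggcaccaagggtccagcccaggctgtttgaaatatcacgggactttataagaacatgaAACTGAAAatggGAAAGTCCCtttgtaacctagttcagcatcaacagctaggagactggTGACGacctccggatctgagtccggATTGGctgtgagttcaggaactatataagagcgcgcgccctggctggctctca
H2-K1: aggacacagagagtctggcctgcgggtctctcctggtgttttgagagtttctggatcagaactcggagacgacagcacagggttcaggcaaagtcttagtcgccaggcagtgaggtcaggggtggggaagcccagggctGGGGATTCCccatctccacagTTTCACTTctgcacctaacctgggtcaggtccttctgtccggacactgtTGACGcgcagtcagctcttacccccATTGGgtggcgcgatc
H2-D1: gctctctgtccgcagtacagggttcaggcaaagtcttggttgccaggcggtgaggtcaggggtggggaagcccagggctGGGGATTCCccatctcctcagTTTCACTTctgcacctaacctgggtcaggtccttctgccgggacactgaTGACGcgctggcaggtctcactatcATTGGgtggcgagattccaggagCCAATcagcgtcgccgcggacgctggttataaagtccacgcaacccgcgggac
H2-M3: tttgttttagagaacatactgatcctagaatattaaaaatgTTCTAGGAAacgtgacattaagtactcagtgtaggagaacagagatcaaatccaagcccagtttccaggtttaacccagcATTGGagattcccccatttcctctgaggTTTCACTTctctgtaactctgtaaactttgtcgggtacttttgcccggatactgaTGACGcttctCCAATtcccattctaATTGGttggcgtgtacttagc
Psmb9 to Tap1: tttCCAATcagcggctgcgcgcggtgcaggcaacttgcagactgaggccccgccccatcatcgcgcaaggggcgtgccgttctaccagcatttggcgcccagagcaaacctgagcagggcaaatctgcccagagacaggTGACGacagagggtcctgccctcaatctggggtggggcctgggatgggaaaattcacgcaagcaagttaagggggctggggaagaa

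In B2m, H2-K1, H2-D1 and H2-M3 alike, TGACG is followed after 20 bases by ATTGG on the same strand. That spaced pair, chosen after the windows were read and containing the single cores, is held by 30 of 32851 windows (0.0913%), which belong to 26 genes. GGGNNTTNC was found in B2m, H2-K1 and H2-D1 (13% of all windows), and AANNGAAA in the same 3 members and in H2-M3 (21.3%). TTCNNNGAA was matched in Psmb8 and H2-M3 (7.02%), TGACG in 5 of the 8 members (17.8%) and ATTGG in 6 of them (33.8%). Tap1 and Psmb9 start 225 bases apart on opposite strands and their windows overlap, so both read the same matches. A match is a string of letters in a window, not a site of binding.

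Between high and low switching subclones, none of the 10 genes passed limma's test at an adjusted p under 0.05, where 1 probe set, the one with the highest mean, stands for a gene. The same threshold was passed by 4.82% of all measured genes (2.04% higher and 2.78% lower in high switching subclones). At the level of probe sets 0 of 27 passed, against 3.59% of all probe sets, and among genes whose mean log2 intensity reached 7 the share was 7.64%. The values nevertheless lay mostly on one side: 9 of the 10 genes had a lower mean in high switching subclones, against 48.1% of all genes and 55.2% of the brighter ones. In 7 of the 10, both high switching arrays were below both low switching arrays, which held for 24.9% of all genes and for 37.1% of the brighter ones, to which all members but Nlrc5 belong. Over probe sets, 15 of 27 were separated in this direction and 1 of 27 in the other, against 22.2% and 25.1% of all probe sets. An unadjusted p under 0.05 was found for 7 members, all of them lower (12.1% of all genes and 21% of the brighter ones were lower by this criterion), as were 13 of the 27 probe sets (9.67% of all probe sets). The median log2 difference of the 10 genes, high minus low switching, was -0.44, against 0.01 for all genes and -0.05 for the brighter ones. With 2 arrays in each class, 0.333 is the smallest two-sided p of an exact permutation test, and the 7 separated genes reached it.

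B2m, the light chain that every class I heavy chain needs, had log2 intensities of 12.31 and 12.47 in H23 and H27, against 12.85 and 13.09 in L25 and L27. The classes did not overlap, and the gap between them was wider than that between the subclones of either class. The difference was -0.58 ± 0.13 (SE), or 1.50-fold lower in high switching subclones, with a 95% interval of -0.91 to -0.26 and a limma adjusted p of 0.0763. The other B2m probe set gave -0.58 ± 0.13 from 11.98 and 12.09 in H23 and H27, against 12.49 and 12.74 in L25 and L27 (limma adjusted p = 0.0752). B2m lay close to the threshold: with a variance that follows intensity, limma's adjusted p was 0.0377, or 0.04 with robust estimation, and both probe sets then passed. It was the only member to pass in any setting tried.

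H2-K1, a classical heavy chain, read 10.44 and 10.21 in H23 and H27, against 10.70 and 10.80 in L25 and L27. All high switching values were below the low switching ones, by a mean of -0.43 ± 0.13 (limma adjusted p = 0.143). A second bright probe set of H2-K1 gave -0.45, and the pair of dimmer ones gave -0.30 and 0.07. H2-D1, the other classical heavy chain, read 11.38 and 11.20 in H23 and H27, against 11.66 and 11.56 in L25 and L27, a difference of -0.32 ± 0.12 (limma adjusted p = 0.222). Its gap between classes was again clear of overlap but of the same order as the spread within a class. The other bright H2-D1 probe sets gave -0.30 and -0.29, while the 6 with a mean under 7 ranged from -0.18 to 0.16. Class I heavy chains are highly similar and polymorphic, 11 of the 13 H2-K1 and H2-D1 probe sets have names that mark possible matches to more than 1 transcript, and which alleles these cells carry is not given, so the values may mix heavy chain genes. The 3 unassigned probe sets that list a member beside a relative differed by -0.45 to 0.03.

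**Figure D1:**
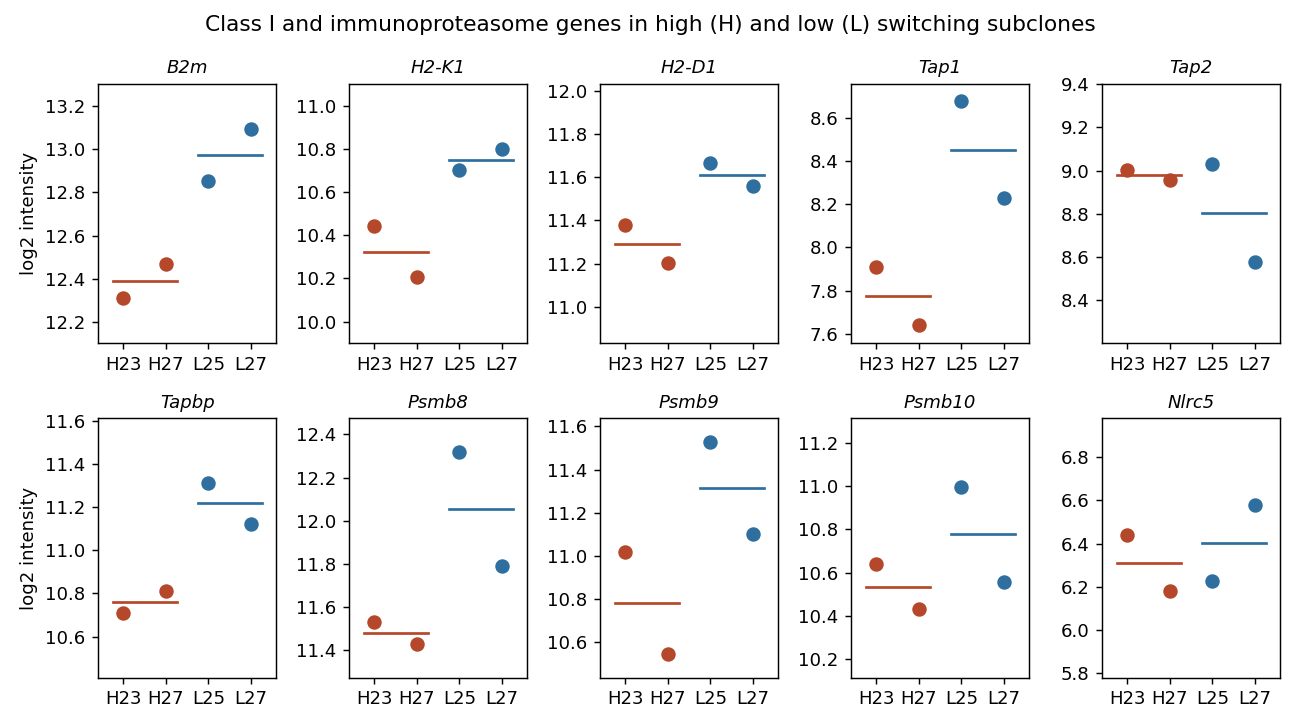
Log2 intensity of each gene (vertical axis, 1.2 log2 units in every panel) in subclones H23, H27, L25 and L27, 1 array each, with the class means as lines. In 7 panels both high switching points lie below both low switching points; Tap2, Psmb10 and Nlrc5 overlap.

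Of the genes of peptide transport and loading, Tap1 and Tapbp separated the classes and Tap2 did not. Tap1 had the largest difference of the 10 genes: 7.91 and 7.64 in H23 and H27, against 8.68 and 8.23 in L25 and L27. The classes did not overlap, and L25 was well above the other 3 arrays. The difference was -0.68 ± 0.18, 1.60-fold lower in high switching subclones (95% interval -1.12 to -0.24, limma adjusted p = 0.113). The other 3 Tap1 probe sets were dim, with differences of -0.32, -0.14 and -0.07. Tap2, the partner of Tap1 in the transporter, read 9.0 and 8.96 in H23 and H27, against 9.03 and 8.58 in L25 and L27, and its classes overlapped. Its difference was 0.18 ± 0.17 (95% interval -0.23 to 0.58, limma adjusted p = 0.67), the only positive value among the 10 genes, and it was -0.05 without L27. Tapbp read 10.71 and 10.81 in H23 and H27, against 11.31 and 11.12 in L25 and L27. Both Tapbp probe sets were lower in each high switching subclone than in each low switching one, with differences of -0.46 ± 0.12 and -0.38 ± 0.11 (limma adjusted p = 0.109 and 0.122).

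Of the immunoproteasome subunits, Psmb8 (LMP7) read 11.53 and 11.43 in H23 and H27, against 12.32 and 11.79 in L25 and L27. The difference was -0.57 ± 0.18, 1.49-fold lower in high switching subclones (limma adjusted p = 0.169), and its dimmer probe set gave -0.40 ± 0.15. Psmb9 (LMP2) read 11.02 and 10.55 in H23 and H27, against 11.53 and 11.10 in L25 and L27, a difference of -0.53 ± 0.21 (limma adjusted p = 0.248). For both genes the classes did not overlap, but H23 and L27 nearly met for Psmb9. Psmb10 (MECL-1) read 10.64 and 10.43 in H23 and H27, against 11.00 and 10.56 in L25 and L27, and its classes overlapped (-0.24 ± 0.17, limma adjusted p = 0.55). Nlrc5, the transactivator, read 6.44 and 6.18 in H23 and H27, against 6.23 and 6.58 in L25 and L27. It was the dimmest of the 10, its classes overlapped, and its difference was -0.09 ± 0.16 (95% interval -0.49 to 0.30, limma adjusted p = 0.847). The sign of the Nlrc5 difference turned without H27 (0.04) and without L27 (0.08).

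**Figure D2:**
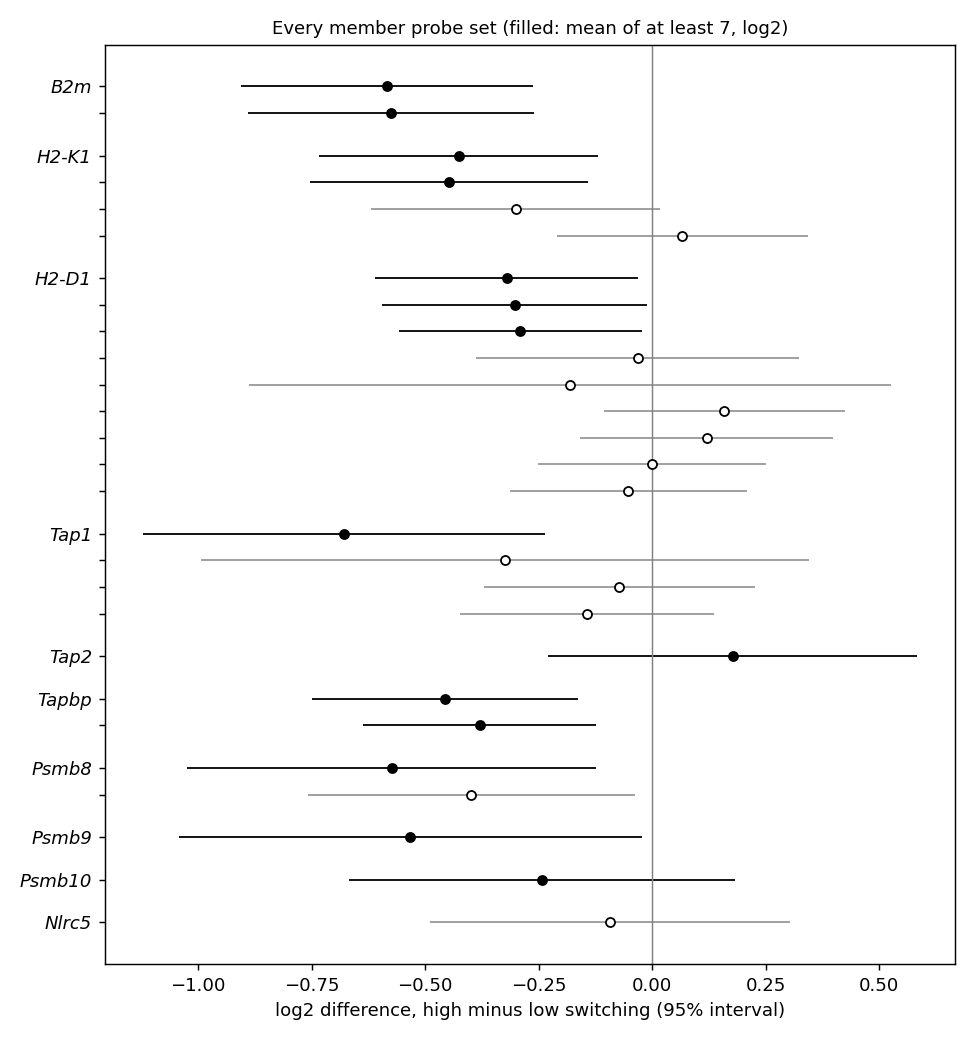
Log2 difference, high minus low switching (horizontal axis), with its 95% interval for all 27 probe sets, grouped by gene with the brightest first. Filled points have a mean log2 intensity of at least 7; 12 of these 14 have an interval below 0 before adjustment, and 1 of the 13 open points does.

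The low switching subclones differed from each other in a subset of the members. Psmb8 was lower in L27 than in L25 by a log2 difference of -0.53, Tap2 by -0.45, Tap1 by -0.45, Psmb10 by -0.44 and Psmb9 by -0.42. These 5 genes, the TAP subunits and the immunoproteasome subunits, are the members with a value at or below -0.4, a size found in 253 of 8222 genes with a mean of at least 7 (3.08%). That cut was not planned and lies just short of the Psmb9 value, so the share describes the size and tests nothing. The heavy and light chains did not share it: L27 minus L25 was 0.24 for B2m, 0.09 for H2-K1 and -0.11 for H2-D1, and it was -0.19 for Tapbp and 0.35 for Nlrc5. Between the high switching subclones, H27 minus H23 ranged from -0.47 for Psmb9 to 0.15 for B2m. For Psmb8, Psmb9, Tap1 and Psmb10 the difference between the classes is thus of the same order as that between L25 and L27, and without L25 the differences of Tap1, Psmb8, Psmb9 and Psmb10 were -0.45, -0.31, -0.32 and -0.02. Genes of chromosome 17, where Tap1, Tap2, Psmb8 and Psmb9 lie together, had a median L27 minus L25 of -0.23 (396 genes with a mean of at least 7, members left out), against 0.01 for all such genes. On chromosome 8, which carries Psmb10 and Nlrc5, it was -0.01. The part of this chromosome-wide shift in the values of Tap1, Tap2, Psmb8 and Psmb9 was not tested.

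**Figure D3:**
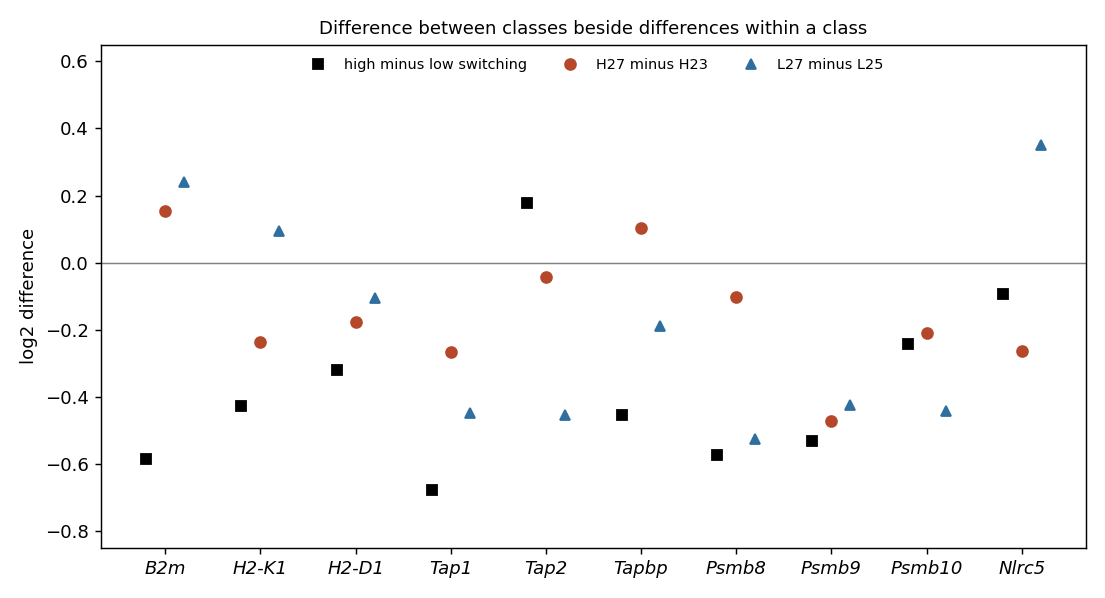
Log2 differences (vertical axis) for each of the 10 genes: high minus low switching class means (squares), H27 minus H23 (circles) and L27 minus L25 (triangles). The triangles of Tap1, Tap2, Psmb8, Psmb9 and Psmb10 lie between -0.53 and -0.42; those of B2m, H2-K1 and Nlrc5 lie above 0.

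Chromosomes also differed in the comparison of classes. The median high minus low difference of genes with a mean of at least 7 was -0.16 on chromosome 17, -0.15 on chromosome 2, where B2m lies, and 0.24 on chromosome 8. An alternative, chosen after seeing the data, subtracted a chromosome's median log2 level (genes with a mean of at least 7) on every array. This moved the differences on chromosomes 17 and 8 by more than the median differences given above. The median over the 10 genes was then -0.31 and 0 passed. The differences of genes on chromosome 17 then moved upward, to -0.18 for H2-K1, -0.08 for H2-D1, -0.44 for Tap1, -0.21 for Tapbp, -0.33 for Psmb8, -0.29 for Psmb9 and 0.42 for Tap2. Those on chromosome 8 moved downward, to -0.52 for Psmb10 and -0.37 for Nlrc5, and B2m was at -0.43. Between Tapbp and H2-D1, which bound the members on chromosome 17 in the gene table's order, 75 of 125 other genes were measured. Of these, 1 was called by limma, the class II gene H2-Ob (higher, 1.30, both class means below the median probe set), and 0 were called lower. Of all measured genes, 4.82% were called. Among the 34 brighter ones, 26 differences were negative, and their median was -0.19 (L27 minus L25: -0.32). Among all 403 brighter genes measured on chromosome 17, members included, 298 were negative, with a median of -0.16 (L27 minus L25: -0.23). Of the brighter genes of all chromosomes, 55.2% were negative.

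The constitutive proteasome subunits that the inducible ones replace had differences nearer 0: Psmb5, the counterpart of Psmb8, -0.04 ± 0.13, Psmb6, the counterpart of Psmb9, -0.19 ± 0.10, and Psmb7, the counterpart of Psmb10, -0.06 ± 0.13. None passed (limma adjusted p = 0.941, 0.405 and 0.874). The log2 ratio of Psmb8 to Psmb5 was -1.45 and -1.58 in H23 and H27, against -0.57 and -1.39 in L25 and L27. This ratio separated the classes by -0.54, with L25 apart from the other 3 arrays, at the smallest p the design allows (exact permutation test, two-sided p = 0.333). For Psmb9 over Psmb6 the difference of the log2 ratio was -0.34 and for Psmb10 over Psmb7 -0.18, with overlapping classes (exact permutation p = 0.667 and 1). The ratios compare arrays, not the amounts of the subunits.

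Beyond the members, 5 lists of genes of the class I pathway were counted. Among 14 measured chaperones and peptide-trimming enzymes, 2 rose and 1 fell, with a median log2 difference of 0.02. Tapbpl, which encodes the tapasin-related editor of class I peptides TAPBPR, read 8.77 and 8.41 in H23 and H27, against 10.53 and 9.86 in L25 and L27. It fell by 1.60 ± 0.24 on the log2 scale (limma adjusted p = 0.028), and its second, dim probe set gave -0.62 (limma adjusted p = 0.0606). Tapbpl is thus the gene of peptide loading with the widest gap, and the call ended without H23, H27 or L25 and with 16 added before log2 (limma adjusted p = 0.0608). Ide, the insulin-degrading enzyme, a cytosolic peptidase, rose by 0.83 ± 0.11 with a call for each of its 5 probe sets (limma adjusted p = 0.0195). The chaperone calreticulin (Calr), part of the loading complex, rose by 0.62 ± 0.12 (limma adjusted p = 0.0469, 2 of 3 probe sets), and by 0.35 with the median of chromosome 8, where it lies, subtracted (limma adjusted p = 0.164). The calls of Ide and Calr ended when any 1 array was left out. Erap1, which trims peptides in the endoplasmic reticulum, had a difference of -0.45 ± 0.11 on its brighter probe set (limma adjusted p = 0.0895) and of -0.92 on the other, which passed (limma adjusted p = 0.0269). Hspa5 and Canx, the chaperones BiP and calnexin, had differences of 0.00 and 0.18 and did not pass. Sec61a1 and Bcap31, of the same list, had differences of 0.50 ± 0.12 and 0.03 ± 0.13 (limma adjusted p = 0.0864 and 0.947).

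Of 17 measured relatives of the classical heavy chains, 1 fell and 0 rose (median -0.04). That gene was H2-M3, whose product presents N-formylated peptides: it read 8.63 and 8.04 in H23 and H27, against 9.70 and 9.66 in L25 and L27. Its difference was -1.35 ± 0.20 (limma adjusted p = 0.027), and the call ended without L25, without L27 and with 16 added before log2 (limma adjusted p = 0.0538). Its promoter, printed above, holds the same spaced pair as H2-K1 and H2-D1. The part of that pair in any of these differences was not tested. H2-T24 read 7.81 and 7.66 in H23 and H27, against 9.49 and 8.53 in L25 and L27 (-1.28 ± 0.30, limma adjusted p = 0.0815). Its difference was -1.76 without L27 and -0.80 without L25. Mr1, which presents vitamin metabolites to MAIT cells, had a difference of 0.34 and did not pass. Of the 17, 8 lay above the median probe set on every array.

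Of 12 further proteasome genes, 1 fell and 0 rose (median -0.07). It was the assembly chaperone gene Psmg4, with 9.88 and 9.76 in H23 and H27, against 10.46 and 10.62 in L25 and L27 (-0.72 ± 0.12, limma adjusted p = 0.0342, 1 of 2 probe sets). Of 20 regulators of class I transcription, 1 fell and 0 rose (median -0.08). Irf3, an interferon regulatory factor activated by nucleic acid sensing, read 9.30 and 9.13 in H23 and H27, against 9.85 and 10.01 in L25 and L27 (-0.71 ± 0.12, limma adjusted p = 0.0398), and 2 of its 4 probe sets passed. The Irf3 call ended with the mean over its probe sets (-0.36, limma adjusted p = 0.0952) and with the chromosome median subtracted (-0.51, limma adjusted p = 0.0863), and without probe sets that may match several transcripts the direction turned (0.17, limma adjusted p = 0.544). Irf1, a direct activator of class I and immunoproteasome genes, differed by -0.11 ± 0.10 (limma adjusted p = 0.688), and Stat3 by 0.34 ± 0.14. Ezh2 and Rfx5 differed by 0.46 ± 0.20 and 0.36 ± 0.15 and did not pass (limma adjusted p = 0.302 and 0.286). The calls of Psmg4 and Irf3 ended when any 1 array was left out, and that of Psmg4 also with the mean over its probe sets (-0.44, limma adjusted p = 0.0508). All 6 genes called in the lists, Tapbpl, Ide, Calr, H2-M3, Psmg4 and Irf3, lost the call with the level of hybridization controls as a block. Of 10 genes of interferon gamma receptor signalling, limma called 0, while 3 had an unadjusted p under 0.05, which 22.9% of all genes had in either direction (median -0.04). Jak2, a kinase of that receptor, read 8.92 and 9.28 in H23 and H27, against 7.99 and 8.38 in L25 and L27 (0.91 ± 0.18, limma adjusted p = 0.0582). Jak2 passed in 6 of the 16 alternatives, with limma adjusted p from 0.0288 to 0.228 over all 16. The others with an unadjusted p under 0.05 lay in opposite directions. They were Ptpn6 (0.55 ± 0.11, limma adjusted p = 0.0563) and Jak1 (-0.49 ± 0.15, limma adjusted p = 0.144). The receptor subunit gene Ifngr1 differed by -0.18 ± 0.12. These counts stand beside the 4.82% of all genes that passed.

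**Figure D4:**
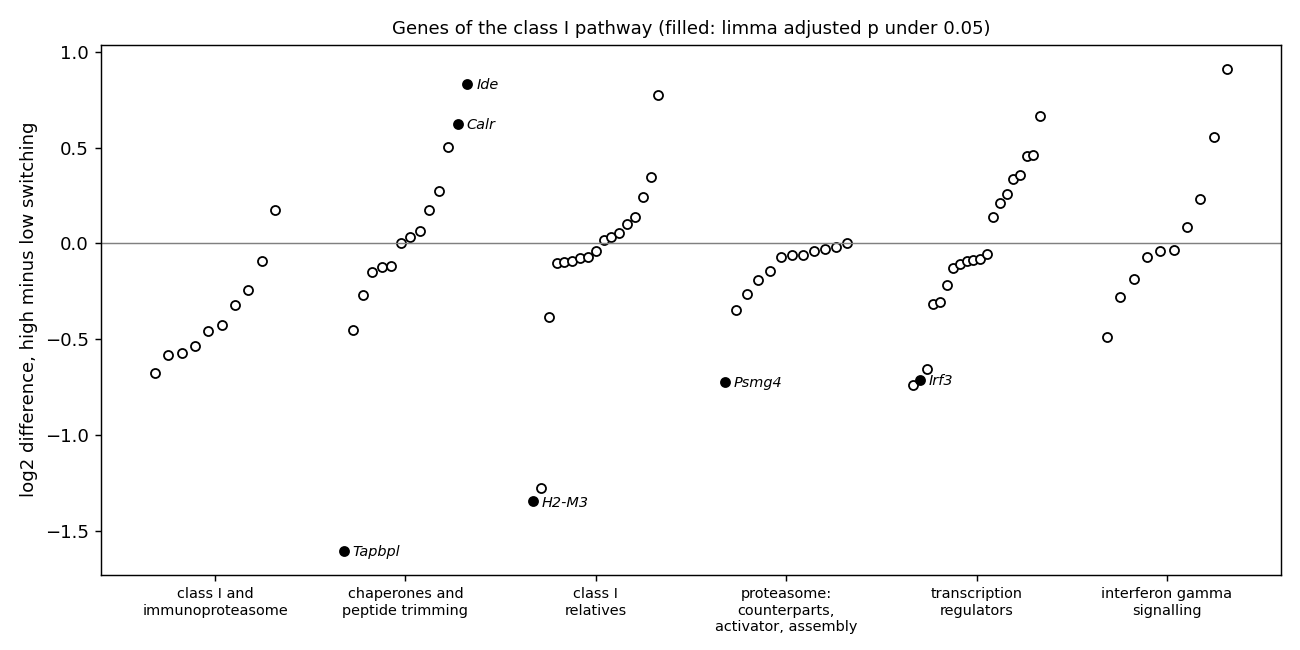
Log2 difference, high minus low switching (vertical axis), for the 10 genes and for 5 lists of other class I pathway genes, each ordered by value; filled points passed limma's test at an adjusted p under 0.05 and are named. The 10 genes of the first column range from -0.68 to 0.18 with none filled.

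The genes whose pattern was most like that of Tap1 were sought among 8213 other genes with a mean of at least 7, by Euclidean distance over the 4 arrays after each gene was centred on its own mean. The nearest were Tmem238 (distance 0.06 log2 units), Dek, a chromatin-binding protein gene (0.07), Dtymk, thymidylate kinase (0.08), Hes6 (0.09) and Gstp3 (0.10). By this choice each had its highest value in L25 and its lowest in H27, as Tap1 did. None passed limma's test. Of the other members, Psmb8 (0.17) ranked 14th and Psmb9 (0.21) ranked 34th in closeness to Tap1. Farther away, Tapbp ranked 500th, H2-D1 767th, Psmb10 778th, H2-K1 930th, B2m 1975th and Tap2 (0.87) 5119th. Nlrc5, with a mean under 7, was not ranked.

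Markers of other cell types were measured too. On every array, all 5 T cell markers, 4 of 6 macrophage and monocyte markers, 3 of 5 dendritic cell markers and 1 of 5 fibroblast markers exceeded the median probe set. So did 10928 of the 18193 measured genes. Cd2 had a mean log2 level of 9.23, and the other T cell markers had 5.61 to 6.15. limma called 0 T cell markers (0 with an unadjusted p under 0.05) and 0 dendritic cell markers (1 unadjusted). It called 1 macrophage and monocyte marker lower, Itgam (-1.38 ± 0.16). Of the 6 markers in that list, 4 had positive differences. It called 1 fibroblast marker higher, Lum (1.21 ± 0.18), whose mean log2 level was 4.92. The share of all measured genes called was 4.82%. The mean log2 level of the T cell markers was 6.53 and 6.64 in H23 and H27, and 6.65 in both L25 and L27. That of the macrophage and monocyte markers was 6.43 in both H23 and H27, and 6.44 and 6.51 in L25 and L27. For the dendritic cell markers it was 5.69 and 5.62 in H23 and H27, and 5.81 and 5.83 in L25 and L27, and for the fibroblast markers 5.15 and 5.05 in H23 and H27, and 4.84 and 4.70 in L25 and L27. The mean level of the plasma cell markers was 12.22 and 12.32 in H23 and H27, and 12.35 and 12.44 in L25 and L27, and that of the B cell markers 7.73 and 7.79 in H23 and H27, and 7.62 in both L25 and L27. The part of any of these markers in the class I values was not tested.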

How the data were processed

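Total RNA of 4 subclones was labelled with biotin and hybridized, per the labels, to Affymetrix mouse arrays, with a single array per subclone. The authors deposited linear intensities, for which the submitters' processing notes name RMA, a method of background correction, normalization and summary of probes. Their median ran from 38.1 to 39.3 over the 4 arrays. RMA compresses differences of dim probe sets. The number of arrays limits the precision.

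The values were put on the log2 scale, 64 controls were left out, and limma 3.58.1 (R 4.3.3) was fitted to 45037 probe sets, high minus low switching, two-sided, with p-values adjusted by Benjamini-Hochberg over all of them. ± is the moderated SE. Probe sets were named from the 2016 platform annotation where it gives 1 symbol (34945), and chromosomes came from a gene table of assembly GRCm38.p6. For the authors' files, the sources used here name no build. The procedure was tested on simulated data.

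The members and lists were chosen with earlier results of these data known. Named were all members, called genes of the lists and of the neighbours on chromosome 17, up to 4 others of each list by level, and the 5 genes most like the member with the largest difference. Erap1, Ifngr1, Jak1, Ptpn6 and the markers Prdm1 and Cd2 were added after their values were seen. Alternatives covered the variance model, dim probe sets, normalization, probe sets that may match several transcripts, the unit of testing, the level of hybridization controls as a block, and leaving out each array. Figures were drawn with matplotlib 3.10.9.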

Additional observations from a re-analysis of the deposited data

How the results depend on the processing

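No paired analysis by label was possible because the labels give subclone names and no number or batch that pairs high with low switching subclones. The block by hybridization control level sets H27 with L25 and H23 with L27 from the arrays' own signals. The number of member genes called was 0 in 14 of 16 alternatives and 1 (B2m, with 2 probe sets) with a variance trend, with or without robust estimation. Without probe sets that may match several transcripts only 6 members could be tested, and B2m, H2-K1, Tap2 and Psmb8 were not among them. The median difference of the members was -0.29 when the probe sets of a gene were averaged and -0.31 with each chromosome's median subtracted, and ranged from -0.46 to -0.30 when 1 array was left out.

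In the lists, 2 interferon gamma signalling genes were called higher when dim probe sets were left out (mean under 6, or under that of the median probe set), after quantile normalization or cyclic loess, with 1 probe set for each gene and with averaged probe sets, and 1 with 16 added before log2 and without probe sets that may match several transcripts. Chaperones called higher were 3 with a variance trend, with or without robust estimation, 1 without such probe sets and with the chromosome median subtracted, 0 with the hybridization controls as a block and 0 when any array was left out. Chaperones called lower were 0 with 16 added and with the block, 2 with the mean over probe sets, and 0 to 1 with an array left out. Relatives called lower were 0 with 16 added and with the block, and 0 to 1 with an array left out, as were those called higher. Proteasome genes called lower were 0 with the mean over probe sets, with the block and without any array, and regulators called lower were 0 in these settings, without ambiguous probe sets and with the chromosome median subtracted. The block leaves 1 degree of freedom fewer, and 0.338% of all probe sets passed with it.

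Signs turned for H2-D1 (0.16) and Irf3 (0.17) without ambiguous probe sets and for Hspa5 (-0.0087) with quantile normalization. With the chromosome median subtracted they turned for Psmb7 (0.088), 2 dim Tap1 probe sets (0.10 and 0.17) and 4 dim H2-D1 probe sets (0.21, 0.19, 0.24 and 0.062). With an array left out, ranges crossed 0 for Tap2 (-0.050 to 0.40), Nlrc5 (-0.27 to 0.082), Psmb5 (-0.18 to 0.11), Psmb7 (-0.17 to 0.050), 2 dim Tap1 probe sets (-0.69 to 0.043 and -0.18 to 0.039) and 3 dim H2-D1 probe sets (-0.21 to 0.15, -0.0061 to 0.0051 and -0.58 to 0.21). The causes were not tested.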
